A study of Saccharomyces cerevisiae with 8 samples.

Results

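The RNA levels of 2 mutant yeast arrays at 37 C were each set against 1 wild type array at 37 C, which makes 3 arrays of the 8 in the study. The arrays were chosen by their titles, and all 9275 probe sets that are not controls were compared after the 8 arrays had been brought to a common scale. The cells were growing exponentially and belonged to Saccharomyces cerevisiae strains labelled wild type, rnt1d and rnt1ts, each with 1 array at 37 C. At 26 C there were 2 wild type arrays, 2 rnt1d arrays and 1 rnt1ts array, and these serve here only for reference. The sources used here do not say what rnt1d and rnt1ts stand for, how the strains were built, or whether an array came from 1 clone or from pooled cultures. The medium is named once as rich and once as complete with or without leucine, and which array had which is not said.

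The product of RNT1 is the RNase III of yeast, which cuts double-stranded stem-loops in the nucleus. Many small nucleolar RNAs (snoRNAs), which guide methylation or pseudouridylation of ribosomal RNA, are released from longer precursors by such a cut, and snRNAs and the ribosomal RNA precursor are cut by it as well. Messenger RNAs with a suitable stem-loop can also be cut. The array signal is a steady-state level, and a probe set for a short stable RNA can read the mature RNA or its precursor, which these values do not tell apart. In RNA from whole cultures, fewer cells with a transcript and less of it per cell cannot be told apart either.

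No difference at 37 C has a replicate check, because each strain has 1 array, and no test was made. A difference was counted when it was at least 2-fold, which is a log2 difference of at least 1 between values of log2(signal + 16). For scale, the pooled SD between replicate arrays at 26 C was 0.24 on that log2 scale. At least 2-fold differences were found in 0.895% of the probe sets between the wild type replicates and in 1.56% between the rnt1d replicates. With so few arrays the precision of each value is limited by their number. A signal was taken as above background when it exceeded the highest of 19 control probe sets for transcripts of other organisms on that array, a bound of 8.63 for wild type, 3.48 for the array labelled rnt1d and 10.7 for the array labelled rnt1ts. All 3 arrays were above it for 7055 probe sets. The median deposited signals were 53.2, 52.6 and 48.4 on the 3 arrays, within the range of 31.1 to 70.1 over the 8 arrays.

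The lowest RNT1 signal carried a different strain label at 37 C than at 26 C. It was 269 on the wild type array, 71.4 on the array labelled rnt1d and 1.26 on the array labelled rnt1ts. The last of these does not exceed the background bound and is at least 25.1-fold under wild type. At 26 C it was 181 and 149 in wild type, 1.31 and 2.03, not above background, in rnt1d and 39.8 in rnt1ts. RNT1 was thus lower on both mutant arrays at 37 C, and the array without a signal above background carried the rnt1ts label there and the rnt1d label at 26 C. Both arrays are called by their labels throughout and neither was moved. The changes shared by both arrays are counted alike if the 2 labels are exchanged, and the changes on 1 array are not, so the shared changes are described first.

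The wild type array at 37 C also stood apart from the wild type arrays at 26 C for some genes, and both comparisons rest on it. It was at least 2-fold higher than the mean of those 2 arrays for 100 probe sets (1.08%) and at least 2-fold lower for 55 (0.593%). A probe set that was high on this 1 array alone is lower on both mutant arrays, and one that was low on it alone is higher on both. For each gene named below that was changed on both mutant arrays but was under 2-fold on either of them against the wild type mean at 26 C, the wild type signals at 26 C or the differences from that mean are given. Temperature, medium and array cannot be told apart in that difference.

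Of the 9275 probe sets, 239 were at least 2-fold higher (2.58%) and 306 lower (3.3%) on the array labelled rnt1d. On the array labelled rnt1ts, 333 were higher (3.59%) and 308 lower (3.32%). Both mutant arrays were higher for 85 probe sets (0.916%) and both were lower for 95 (1.02%). On the deposited scale, without a common scale, the array labelled rnt1ts was higher for 235 and lower for 471 probe sets, and both arrays were higher for 70 and lower for 166. A change was assigned to 1 array when it was at least 2-fold there and under 0.5 log2 units in size on the other. By that rule 73 probe sets were higher (0.787%) and 50 lower (0.539%) on the array labelled rnt1d only, and 150 were higher (1.62%) and 110 lower (1.19%) on the array labelled rnt1ts only. A further 18 probe sets (0.194%) were at least 2-fold higher on the array labelled rnt1d and at least 2-fold lower on the array labelled rnt1ts, and 0 were the other way round. Changes of 2-fold on 1 array with a smaller change on the other made up 407 probe sets, and 8287 were changed on neither. The 2 mutant arrays differed from each other at least 2-fold for 554 probe sets (5.97%). The cut runs through a continuum: 1 probe set of SRL1 lay just inside it, at log2 differences of 1.00 and 1.35, and another lay just outside. Among the lower probe sets, AAC3 lay just inside it at -1.43 and -1.004, and RPC31 just outside at -1.03 and -0.9998. Against the wild type mean at 26 C, the SRL1 probe set inside the cut was at 0.45 and 0.80 and AAC3 at -0.72 and -0.29.

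**Figure D1:**
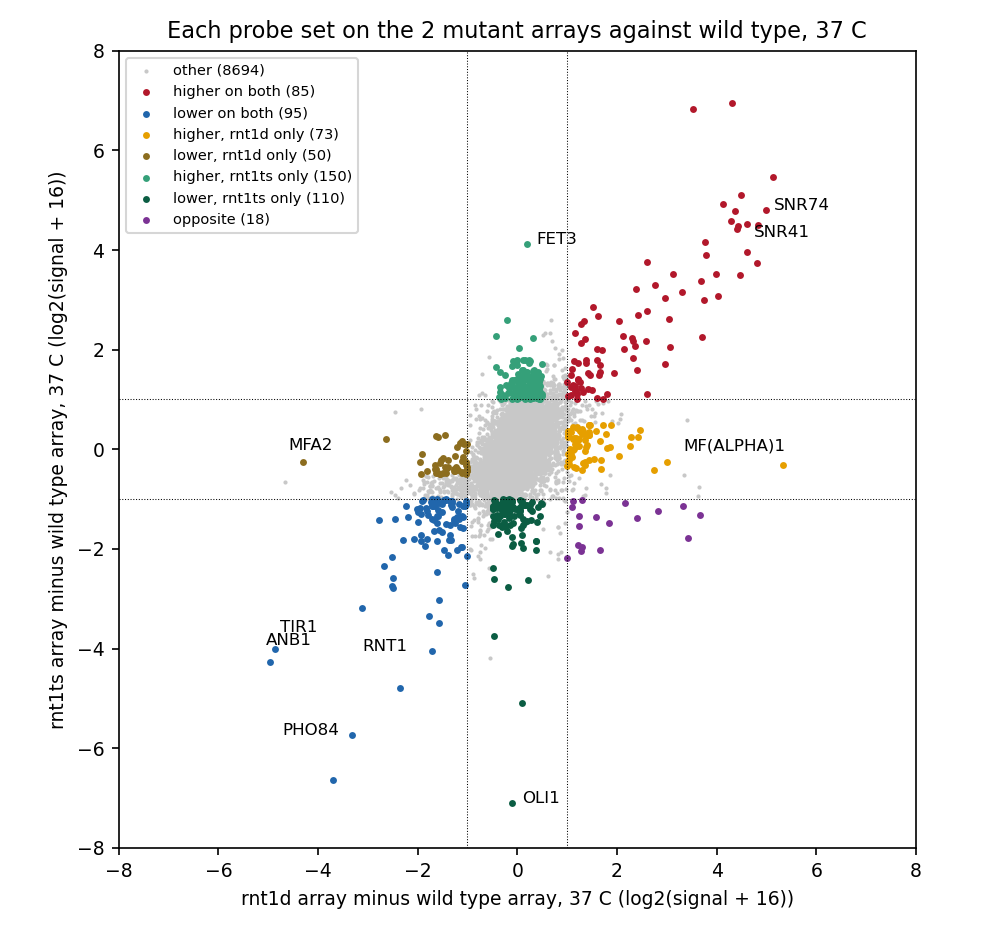
Log2(signal + 16) difference from the wild type array at 37 C of each of 9275 probe sets, on the array labelled rnt1d (x axis) and on the array labelled rnt1ts (y axis), coloured by class, with dotted lines at 2-fold. The 85 probe sets higher on both arrays reach the upper right corner and the 95 lower on both the lower left, while OLI1, FET3, MFA2 and MF(ALPHA)1 lie near an axis, each far out on 1 array.

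The changes shared by both mutant arrays were led by box C/D snoRNAs, the guides of 2'-O-methylation. Of the 85 probe sets higher on both arrays, 68 name 1 gene, and 27 of these 68 name a snoRNA. They cover 26 of the 57 snoRNA genes measured, while 0.916% of all probe sets were higher on both. No snoRNA probe set was lower on both arrays, against 1.02% of all probe sets. In the groups of genes that follow, a gene is represented by 1 probe set, and over the 5656 genes 1.11% were higher and 0.69% lower on both arrays.

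The snoRNAs of polycistronic transcripts, which are cut out of a shared precursor that holds several of them, were nearly all higher. Of 17 measured, 16 were at least 2-fold higher on both arrays, with a median log2 difference of 3.31 on the array labelled rnt1d and 3.21 on the array labelled rnt1ts, against 0.01 over all genes on each. SNR74 had a signal of 14.0 on the wild type array, 944 on the array labelled rnt1d and 821 on the array labelled rnt1ts. Those are log2 differences of 4.998 and 4.80, and the wild type arrays at 26 C, at 8.15 and 13.9, were as low as the one at 37 C. SNR41 was at 54.1 in wild type against 1694 and 1592, a signal 31.3-fold and 29.4-fold higher without the added 16. SNR73 was at 71.3 against 2461 and 1957. Both arrays lay far above wild type and close to each other for these 3 genes.

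SNR55 was at 62.5 in wild type, 1739.8 on the array labelled rnt1d and 2697 on the array labelled rnt1ts. It belongs with SNR57 and SNR61 to 1 polycistronic transcript, and SNR57, at 13.8, 389.5 and 518, and SNR61, at 209, 1154 and 2065, were also higher on both. SNR70, a neighbour of SNR41 and SNR51 in another such transcript, was at 141, 3379 and 3492, and SNR51 was at 81.9, 1341 and 1454. The 7 measured snoRNAs from SNR72 to SNR78, encoded as 1 cluster, were all higher on both arrays, from SNR72 with log2 differences of 3.31 and 3.16 to SNR78 with 1.28 and 2.52. SNR78 was not above background in wild type, and its signals of 36.1 and 108 make it at least 4.19-fold and 12.5-fold higher. The exception among the 17 was SNR128, which was at 79.4 in wild type, 447 on the array labelled rnt1d and 97.1 on the array labelled rnt1ts. Its companion SNR190 was not above background in wild type, at 1.34, and reached 31.4 and 32.6 on the mutant arrays.

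Among 19 other box C/D snoRNAs, most with a promoter of their own, 10 were higher on both arrays and 0 lower on both. SNR71 was at 93.4 in wild type, 2640.2 on the array labelled rnt1d and 1691 on the array labelled rnt1ts, log2 differences of 4.60 and 3.96. SNR48 was at 35.5, 825 and 419, and SNR69 at 57.6, 629.7 and 833. SNR64 was not above background in wild type and reached 458 and 208, at least 53.1-fold and 24.1-fold higher. The list was not uniform. SNR4 was at 368 in wild type, 1126 on the array labelled rnt1d and 134 on the array labelled rnt1ts, so that the 2 mutant arrays lay on opposite sides of wild type. SNR66 and SNR45 were lower on the array labelled rnt1ts, at log2 differences of -1.28 and -1.17, and were at -0.17 and -0.41 on the array labelled rnt1d.

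The box H/ACA snoRNAs, the guides of pseudouridylation, did not share this. Of 16 measured, 0 were at least 2-fold higher on either array, and their medians were 0.12 and -0.12. SNR5 was lower on the array labelled rnt1ts, at 145 in wild type, 160.4 on the array labelled rnt1d and 58.3 on the array labelled rnt1ts. Of 4 intron-encoded snoRNAs, 0 were higher on either array. SNR44, which lies in an intron of RPS22B, was at 306 in wild type against 71.9 and 147, log2 differences of -1.87 and -0.98. SNR39 was at 81.5 against 41.2 and 84.7.

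**Figure D2:**
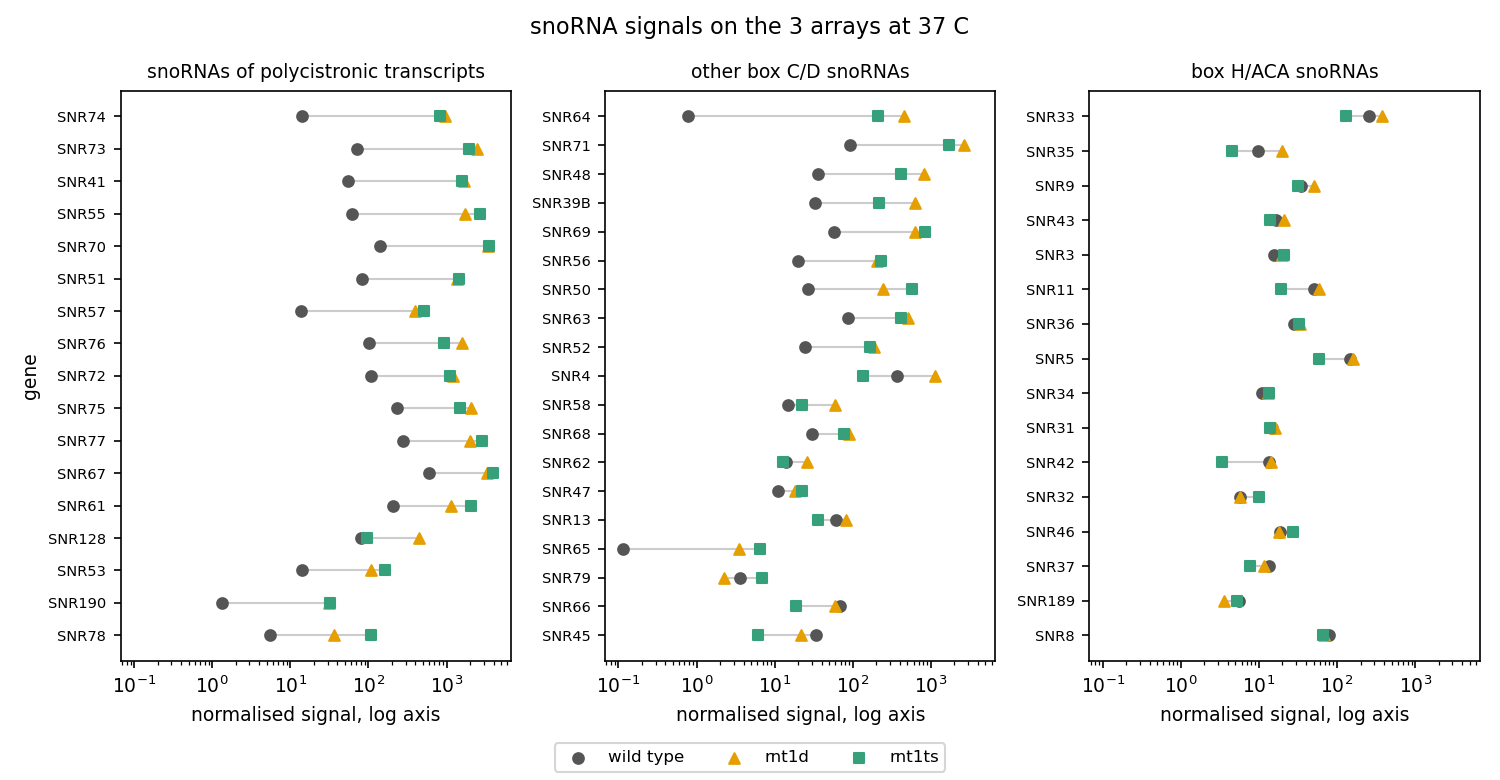
Normalised signal (log axis) of each measured snoRNA on the wild type array (circles), the array labelled rnt1d (triangles) and the array labelled rnt1ts (squares) at 37 C, by class. In 16 of 17 snoRNAs of polycistronic transcripts and 10 of 19 other box C/D snoRNAs both mutant arrays lie at least 2-fold above wild type, and in 0 of 16 box H/ACA snoRNAs; signals under the bound of 8.63 in wild type are not above background.

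RPS22B, a ribosomal protein gene whose transcript is reported as an RNase III substrate, was itself among the shared changes. One of its probe sets was at 319 in wild type, 999 on the array labelled rnt1d and 1136 on the array labelled rnt1ts, log2 differences of 1.60 and 1.78. The brighter probe set that represents it in the lists was at 1308, 2627 and 2613, with 1.00 and 0.99, just under the 2-fold cut on both. Of the 8 measured host genes of intronic snoRNAs, 0 were higher on both arrays. The hosts ASC1, at 3700.1, 3224 and 3314, and EFB1, the gene of a translation elongation factor subunit, at 2713, 2914 and 2361, had log2 differences under 0.5 in size on both arrays.

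Several spliceosomal snRNAs were higher on both arrays. Of 7 measured snRNAs and other stable RNAs, 3 were at least 2-fold higher on both and 0 lower on both. SNR19, the U1 RNA, was at 15.96 in wild type, 489 on the array labelled rnt1d and 350.1 on the array labelled rnt1ts, log2 differences of 3.98 and 3.52. SNR14, the U4 RNA, was at 15.7, 125 and 112. SNR7-L, the long form of the U5 RNA, was at 10.99, 72.6 and 38.5, a smaller difference of 1.71 and 1.01. SNR6, the U6 RNA, was also higher, at 13.2, 22.0 and 38.1. With the 16 added, which understates the change of such dim signals, it stayed under 2-fold on both.

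Probe sets for ribosomal RNA disagreed with each other. A probe set of RDN25-1, the 25S rRNA, was at 20.7 in wild type, 708 on the array labelled rnt1d and 4509.6 on the array labelled rnt1ts, the highest shared difference on the latter. A second probe set of the same gene had log2 differences of 0.10 and 0.16. A probe set of RDN37-1, the precursor transcript, was at 0.402 in wild type, not above background, and at 172 and 1846 on the mutant arrays, at least 20.0-fold and 214-fold higher. Of the 7 probe sets of RDN37-1, 2 were higher on both arrays. The sources used here do not say which stretch of the transcript each probe set reads.

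Protein-coding genes made up 34 of the 68 single-gene probe sets higher on both arrays, and their differences were smaller than those of the leading snoRNAs. COX26, which encodes a small protein of the respiratory supercomplex, was at 75.5 in wild type, 529.9 on the array labelled rnt1d and 397 on the array labelled rnt1ts. PRM10, a gene named for regulation by pheromone, was at 104, 363 and 373. For both genes the wild type arrays at 26 C were close to the one at 37 C, at 62.0 and 80.8 for COX26 and 95.5 and 101 for PRM10. ADE17 and ADE2, enzymes of purine synthesis, were at 43.1 and 84.8 in wild type, 280.2 and 289 on the array labelled rnt1d and 193 and 189.8 on the array labelled rnt1ts. CHO1, the phosphatidylserine synthase gene, was at 179, 579 and 775. The wild type arrays at 26 C were above the one at 37 C for ADE17 and for CHO1, which was at 279.5 and 321. Against their mean ADE17 had log2 differences of 1.45 and 0.95 on the mutant arrays and CHO1 had 0.92 and 1.33, each under 2-fold on 1 array.

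Of 29 measured genes of the cell wall integrity response, 2 were higher on both arrays. SVS1, a cell wall protein gene, was at 336, 887 and 1619, and YPS3, a cell surface protease gene, at 159.6, 457 and 388. Of 30 iron regulon genes, 1 was higher on both, HMX1, the heme oxygenase gene, at 101, 245 and 574. Of 28 heat shock genes, 3 were higher on both, all of them chaperones or cochaperones. STI1, an Hsp90 cochaperone gene, was at 582, 1354 and 1275, SIS1, an Hsp40 gene, at 242, 551 and 869, and SSE2, an Hsp110 gene, at 99.7, 228 and 261. The wild type array at 37 C was lower than both at 26 C for STI1 (875 and 1054) and SIS1 (667 and 806). Against the mean of the wild type arrays at 26 C, SIS1 had log2 differences of -0.40 and 0.24 on the mutant arrays and STI1 had 0.49 and 0.40. TPS2, which encodes a trehalose synthesis enzyme, was the 1 gene of 28 general stress genes that was higher on both, at 100.4, 314 and 248. Its wild type signals at 26 C were 173 and 189. Against the wild type mean at 26 C, TPS2, at 0.74 and 0.42, and SSE2, at 0.76 and 0.94, were under 2-fold on both mutant arrays. SVS1, at 0.79 and 1.64, and HMX1, at 0.26 and 1.44, were then under 2-fold on the array labelled rnt1d.

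For 8 of the 85 probe sets the wild type array at 37 C was at least 2-fold under the wild type mean at 26 C. PUT4, a proline permease gene, was at 96.8 in wild type at 37 C but 386 and 450.1 at 26 C, and its 420.0 and 309.9 on the mutant arrays lay beside the latter. MBF1, a transcriptional coactivator gene, was at 161 at 37 C and at 414 and 434 at 26 C, under its 753 and 834 on the mutant arrays. GCV1, a glycine cleavage gene, was at 74.7 at 37 C, 197 and 309 at 26 C, 245 on the array labelled rnt1d and 638 on the array labelled rnt1ts. Against the mean of the 2 wild type arrays at 26 C, 60 of the 85 probe sets were still at least 2-fold higher on both mutant arrays.

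The arrays at 26 C, which had no part in choosing these probe sets, were then compared. In rnt1d at 26 C, 70 of the 85 probe sets (82.4%) were at least 2-fold higher than in wild type at 26 C, against 3.32% of all probe sets. In rnt1ts at 26 C, 39 (45.9%) were, against 1.41%. The 3 mutant arrays at 26 C lay above both wild type arrays at 26 C in 72 of the 85 (84.7%), against 14.3% of all probe sets. Both arrays of rnt1d at 26 C had SNR74, at 702 and 657, and rnt1ts at 26 C had it at 168, all above the wild type signals. By gene order in assembly R64, 24 of 5486 protein-coding genes (0.437%) lay next to a snoRNA gene higher on both arrays. Of the 34 shared protein-coding genes 0 did, a count that cannot be told apart from so small a share.

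The 95 probe sets lower on both mutant arrays held 0 of the 59 snoRNA probe sets, a count near the 1.02% of all probe sets that were lower on both. Of the 95, 45 name 1 gene, 18 name several and 32 are unnamed. They had a higher median wild type signal than the shared higher ones, 338 against 55.3. The genes of phosphate supply were the list with the most shared members. Of 15 measured phosphate regulon genes, 7 were lower on both arrays and 0 higher on both, with medians of -1.11 on the array labelled rnt1d and -1.34 on the array labelled rnt1ts.

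PHO84, the high-affinity phosphate transporter gene, was at 3314 in wild type, 319 on the array labelled rnt1d and 46.5 on the array labelled rnt1ts. Its wild type signals at 26 C, 2941 and 2959, were close to the one at 37 C. SPL2, which encodes an inhibitor of low-affinity phosphate uptake, was at 168 in wild type and 5.26 on the array labelled rnt1d. On the array labelled rnt1ts it was at 4.38, under the background bound and at least 15.7-fold lower. VTC3, VTC4 and VTC2 encode subunits of the polyphosphate synthesis complex. VTC3 was at 319.8, 77.1 and 71.5 in wild type and on the arrays labelled rnt1d and rnt1ts, VTC4 at 899, 294 and 284, and VTC2 at 404, 132 and 160.2. A second VTC4 probe set had log2 differences of -1.18 and -1.36.

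GIT1, a glycerophosphoinositol transporter gene, was at 159.9, 65.3 and 29.1, and PHM6 at 51.5, 8.50 and 0.673, the last not above background. For PHM6 and GIT1 the wild type array at 37 C was itself lower than at 26 C, by -1.13 and -0.74 log2 units. The acid phosphatase gene PHO5 was at 1061 in wild type, 721 on the array labelled rnt1d and 43.4 on the array labelled rnt1ts, so that it passed 2-fold on 1 array. PHM8, a nucleotidase gene, was the exception, with 1.03 on the array labelled rnt1d and -0.63 on the array labelled rnt1ts. At 26 C, 10 of the 15 genes were at least 2-fold lower in rnt1d and 11 in rnt1ts, against 2.08% and 1.11% of all probe sets.

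The low-oxygen genes that were lower on both mutant arrays had a high signal on the 1 wild type array at 37 C. ANB1, an isoform of the translation factor eIF5A made at low oxygen, was at 1396 in wild type at 37 C, 29.5 on the array labelled rnt1d and 56.8 on the array labelled rnt1ts, and at 87.2 and 82.6 in wild type at 26 C. TIR1, a cell wall mannoprotein gene, was at 5012, 156 and 295, and at 299 and 271 in wild type at 26 C. DAN1, a related gene, was at 144, 9.16 and 15.5, and at 16.2 and 19.9 in wild type at 26 C. Against the wild type mean at 26 C, TIR1 had log2 differences of -0.81 and 0.05 on the mutant arrays and ANB1 had -1.15 and -0.47. Of 9 seripauperins and low-oxygen cell wall genes, 2 were lower on both arrays, and of 17 other low-oxygen and heme-dependent genes 2 were, ANB1 and the ADP/ATP carrier gene AAC3. Against wild type at 26 C, the wild type array at 37 C had medians of 0.67 and 0.42 over these 2 lists. AAC3 was at -0.72 and -0.29 on the mutant arrays against the wild type mean at 26 C, under 2-fold on both.

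PRM7 and BSC1 also rest on that array. PRM7 was at 645 in wild type at 37 C, 208 on the array labelled rnt1d and 43.2 on the array labelled rnt1ts, while the wild type arrays at 26 C disagreed with each other, at 176 and 37.7. BSC1 was at 71.4, 12.8 and 8.39, and at 28.2 and 2.43 in wild type at 26 C. Its 8.39 on the array labelled rnt1ts, at least 6.68-fold lower, and its 2.43 were not above background. For 13 of the 95 probe sets the wild type array at 37 C was at least 2-fold above the wild type mean at 26 C, and 47 of the 95 were still at least 2-fold lower on both mutant arrays against that mean.

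**Figure D3:**
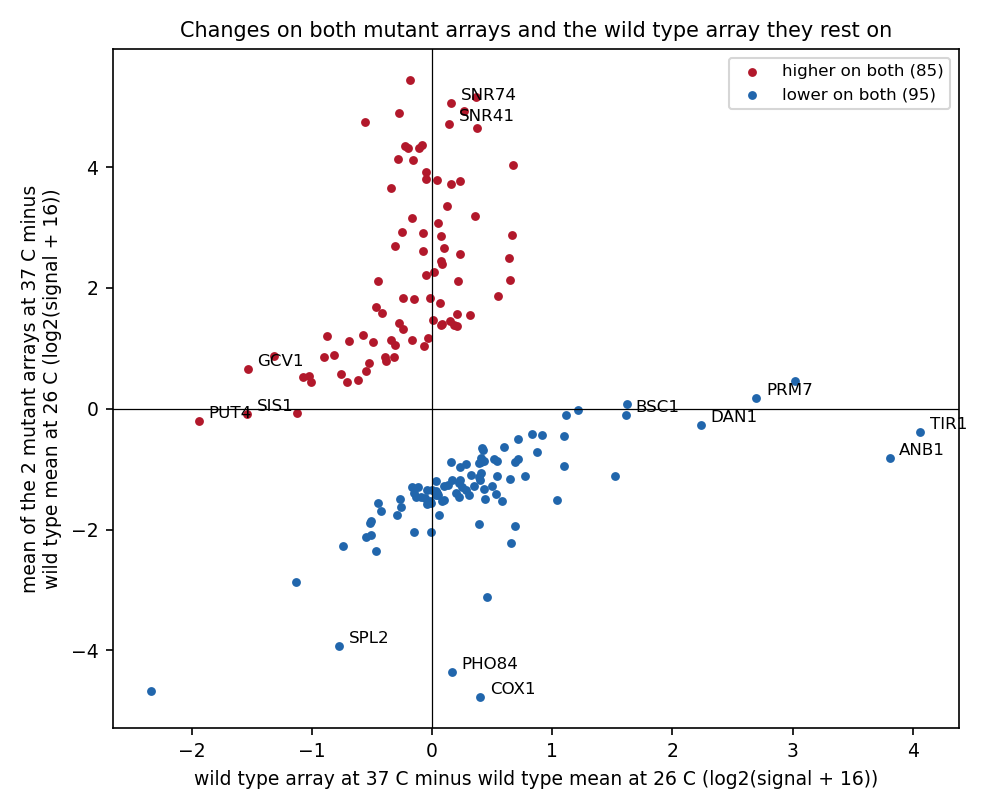
For the 85 probe sets higher and the 95 lower on both mutant arrays at 37 C, the log2(signal + 16) difference of the wild type array at 37 C (x axis) and of the mean of both mutant arrays at 37 C (y axis) from the wild type mean at 26 C. The snoRNAs lie high at an x value near 0, PHO84 and COX1 lie low near 0, and TIR1, ANB1, PRM7 and DAN1 lie far right at a y value near 0 or under it.

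Most of the other named genes lower on both arrays had wild type signals within 2-fold of each other at the 2 temperatures. GGC1, the mitochondrial GTP/GDP carrier gene, was at 511 in wild type, 123 on the array labelled rnt1d and 144 on the array labelled rnt1ts, and at 476 and 506 in wild type at 26 C. HXT4, a hexose transporter gene, was at 172, 68.8 and 47.7, and UBC9, the SUMO-conjugating enzyme gene, at 309.9, 137 and 93.0. ARO5 was the exception, at 261, 32.8 and 30.1 at 37 C but at 117 and 119.5 in wild type at 26 C, and against the mean of these it had log2 differences of -1.46 and -1.54. Of 24 measured redox and detoxification genes, 4 were lower on both and 0 higher on both. GTT2, a glutathione transferase gene, was at 219, 67.0 and 58.9, and GSH1, the gene of the first enzyme of glutathione synthesis, at 136, 57.6 and 52.9. OYE3, an NADPH oxidoreductase gene, was at 146, 45.4 and 21.4, and ATR1, a drug efflux pump gene, at 251, 94.9 and 82.1. Of 25 sulfate assimilation and methionine genes, 2 were lower on both, the sulfate permease gene SUL2 and the sulfite reductase gene MET5, which was at 515, 244 and 242. Against the wild type mean at 26 C, HXT4, at -0.98 and -1.39, and OYE3, at -0.97 and -1.68, were just under 2-fold on the array labelled rnt1d. MET5, at -0.87 and -0.88, and SUL2, at -0.81 and -0.96, were then under it on both.

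Many of the shared lower probe sets read repeated sequences. Of the 95, 38 (40%) are of the kind that the array design marks as matching a gene family, against 6.32% of all probe sets. Several of these name Ty retrotransposon genes. A probe set of YGR109W-B was at 995 in wild type, 388 on the array labelled rnt1d and 452 on the array labelled rnt1ts, and a probe set of YOR192C-C at 659, 209 and 273. Copies of these elements are near identical, so the values are not those of single genes. Against the wild type mean at 26 C the probe set of YGR109W-B was at -0.91 and -0.70 and that of YOR192C-C at -1.05 and -0.68. RPL9B and RPL7B, ribosomal protein genes with a near-identical copy, each had 1 probe set lower on both arrays, only that of RPL7B being of the gene family kind, with log2 differences of -1.36 and -1.51 for RPL9B and -1.20 and -2.02 for RPL7B. Of 80 measured ribosomal protein genes 1 was lower on both arrays, and the list medians were -0.02 and -0.04.

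At 26 C, 37 of the 95 probe sets (38.9%) were at least 2-fold lower in rnt1d, against 2.08% of all, and 29 (30.5%) in rnt1ts, against 1.11%. The 3 mutant arrays at 26 C lay below both wild type arrays in 52 (54.7%), against 16.1% of all probe sets. ANB1, TIR1 and DAN1 had log2 differences of -0.70, -0.08 and -0.17 in rnt1d at 26 C and -0.35, -0.59 and -0.02 in rnt1ts. For PHO84 those were -4.33 and -3.14, and for GGC1 -1.75 and -0.27.

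Changes on 1 array only depend on which label the array carries, and several of the gene lists that hold them also hold shared changes. Over the 5656 genes, 3.25% were at least 2-fold higher and 1.5% lower on the array labelled rnt1d, and 4.42% and 3.52% on the array labelled rnt1ts. On 1 array only, by the rule above, 61 genes were higher (1.08%) and 16 lower (0.283%) for rnt1d and 113 higher (2%) and 86 lower (1.52%) for rnt1ts. The array labelled rnt1d differed from the other 2 at 37 C in genes of mating type. Of 7 a-specific genes, which are transcribed in cells of mating type a, 6 were at least 2-fold lower on it and 0 on the array labelled rnt1ts, with medians of -2.23 and -0.26. MFA2, a pheromone gene of a cells, was at 1102 in wild type, 40.9 on the array labelled rnt1d and 921 on the array labelled rnt1ts. STE2, the receptor gene of a cells, was at 149, 10.5 and 174, STE6, the exporter of a-factor, at 93.2, 20.2 and 113, and BAR1, a secreted protease, at 161, 30.8 and 149.

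Of 5 alpha-specific genes, 3 were higher on the array labelled rnt1d and 0 on the array labelled rnt1ts. MF(ALPHA)1, the main alpha-factor gene, was at 33.0 in wild type, 1957 on the array labelled rnt1d and 23.2 on the array labelled rnt1ts. AFB1 was at 30.6, 459 and 16.5, and STE3, the receptor gene of alpha cells, at 19.5, 60.5 and 4.53, the last not above background. MF(ALPHA)2, at 17.6, 13.4 and 12.6, and SAG1, at 61.1, 69.7 and 87.3, stayed under 2-fold. At 26 C it was rnt1ts that had all 5 alpha-specific genes at least 2-fold higher and 6 of the 7 a-specific genes at least 2-fold lower. Over all probe sets 1.41% were higher and 1.11% lower in rnt1ts at 26 C. In rnt1ts at 26 C MF(ALPHA)1 was at 2988, MF(ALPHA)2 at 1112 and MFA2 at 7.47, not above background. In rnt1d at 26 C MF(ALPHA)1 was at 21.7 and 26.2 and MFA2 at 828 and 558. The part of mating type in the other differences was not tested.

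**Figure D4:**
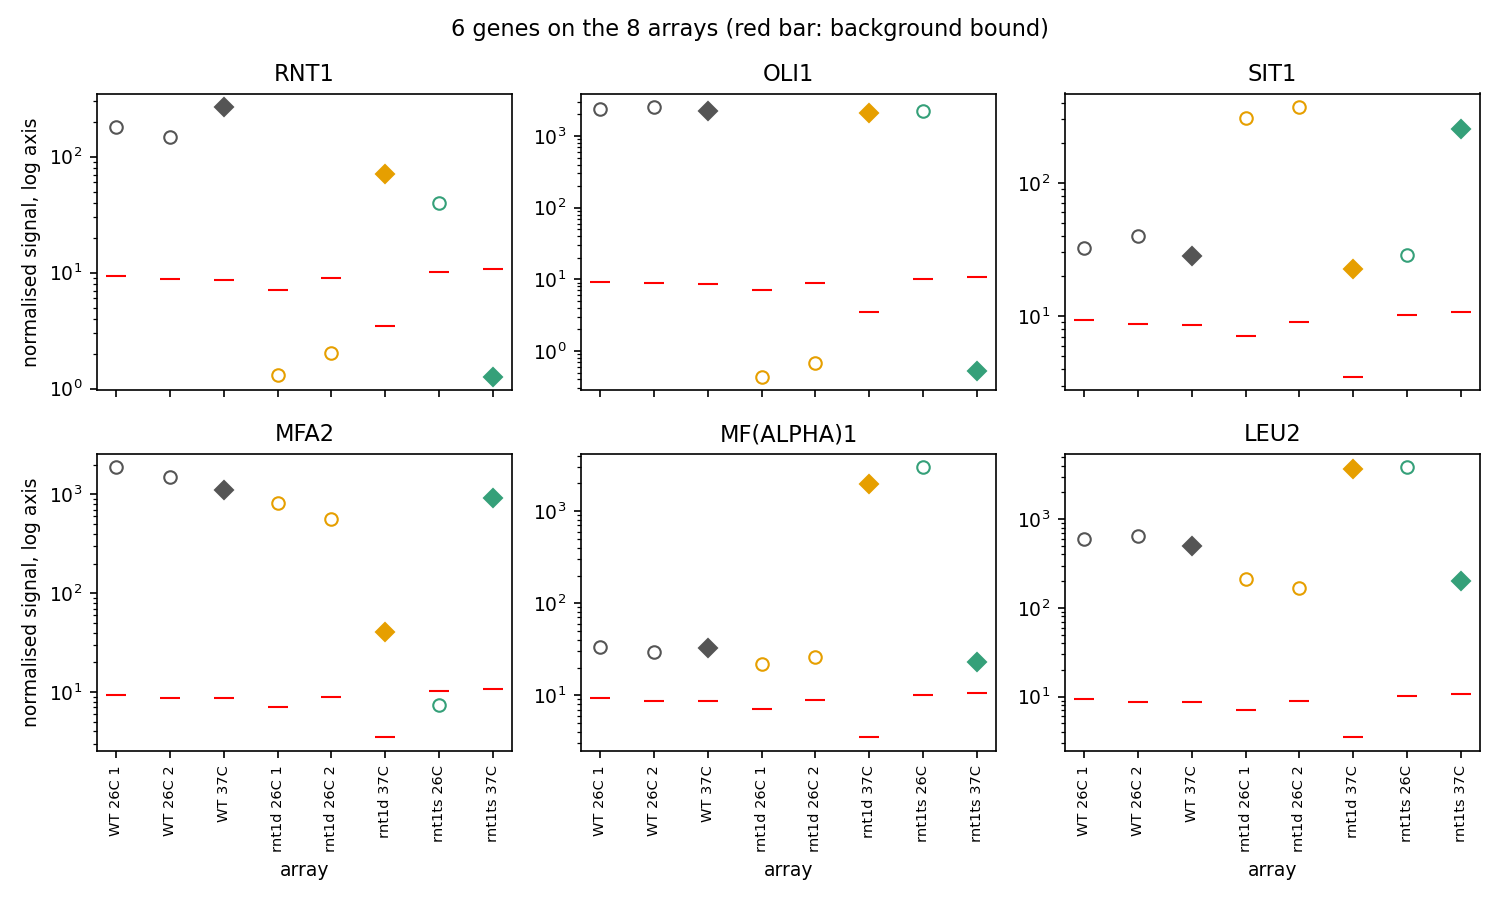
Normalised signal (log axis) of 6 genes on the 8 arrays, with open circles at 26 C, filled diamonds at 37 C, colour by strain label and a red bar at each array's background bound. RNT1 and OLI1 are under the bound on the 2 rnt1d arrays at 26 C and on the array labelled rnt1ts at 37 C, where SIT1 is high; MF(ALPHA)1 and LEU2 are high on rnt1ts at 26 C and on the array labelled rnt1d at 37 C, where MFA2 is low.

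Phospholipid synthesis genes were higher mainly on the array labelled rnt1d. Of 17 genes of inositol and phospholipid synthesis, 10 were higher on it and 1 on the array labelled rnt1ts, with medians of 1.24 and 0.06, the latter being -0.09 on the deposited scale. ITR1, an inositol transporter gene, was at 898 in wild type, 2372 on the array labelled rnt1d and 927 on the array labelled rnt1ts. CKI1, a choline kinase gene, was at 89.4, 254 and 86.6, and INO2, the gene of an activator of the pathway, at 52.6, 140.1 and 36.5. INO1, the inositol phosphate synthase gene, was at 70.2, 1042 and 29.2, and its wild type signals at 26 C were 18.6 and 12.5. At 26 C, 8 of the 17 genes were at least 2-fold higher in rnt1ts and 2 in rnt1d, against 1.41% and 3.32% of all probe sets.

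General stress genes were higher on the array labelled rnt1d in 9 of 28 and on the array labelled rnt1ts in 2, and 3 were lower on the latter. DDR2, a stress-induced gene, was at 551 in wild type, 3790.5 on the array labelled rnt1d and 408 on the array labelled rnt1ts. GPX1, a peroxidase gene, was at 58.1, 384 and 72.2. SOL4, a gene of the pentose phosphate pathway, was at 57.3, 387 and 80.4, and GOR1, a glyoxylate reductase gene, at 64.9, 316 and 57.6. Of the 28 general stress genes, 4 were at least 2-fold higher in rnt1d at 26 C and 0 in rnt1ts, against 3.32% and 1.41% of all probe sets. Their medians at 26 C were 0.35 in rnt1d and 0.53 in rnt1ts, so this list did not follow the other label in its counts. Of 35 nuclear genes of the respiratory chain, 4 were higher on the array labelled rnt1d and 2 on the array labelled rnt1ts, with medians of 0.75 and -0.28. The wild type array at 37 C had a median of -0.41 over this list against wild type at 26 C, and against the wild type mean at 26 C the list medians were 0.24 and -0.69. SDH2, a succinate dehydrogenase subunit gene, was at 275, 714 and 224. In rnt1d at 26 C, 7 of these 35 genes were at least 2-fold lower, against 2.08% of all probe sets. In rnt1ts at 26 C 0 were, against 1.11%. The list medians at 26 C were -0.74 in rnt1d and 0.35 in rnt1ts. Of the 50 probe sets lower on the array labelled rnt1d only, 27 (54%) were of the gene family kind. That kind made up 6.32% of all probe sets and 40% of those lower on both arrays. The hexose transporter gene HXT3 was at 1768, 876 and 1914.

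Of the 73 probe sets higher on the array labelled rnt1d only, 21 (28.8%) were at least 2-fold higher in rnt1ts at 26 C, against 1.41% of all, and 9 (12.3%) in rnt1d at 26 C, against 3.32%. Of the 50 lower on it only, 10 (20%) were at least 2-fold lower in rnt1ts at 26 C and 4 (8%) in rnt1d, against 1.11% and 2.08%.

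The array labelled rnt1ts had no signal above background for some probe sets of mitochondrially encoded genes. Of 8 mitochondrially encoded genes, 5 were at least 2-fold lower on it and 1 on the array labelled rnt1d. OLI1, a subunit gene of the ATP synthase, was at 2254 in wild type, 2100.1 on the array labelled rnt1d and 0.523 on the array labelled rnt1ts. The last is under the background bound and at least 211-fold lower. A second OLI1 probe set, with log2 differences of 0.15 and 0.02, was not above background on any of the 3 arrays and so cannot show a loss. ATP6, another ATP synthase subunit gene, was at 559.5, 595 and 0.975, at least 52.3-fold lower on the array labelled rnt1ts. OLI1 was at 0.433 and 0.676 in rnt1d at 26 C and at 2224 in rnt1ts at 26 C, so the arrays under background carried the rnt1d label at 26 C and the rnt1ts label at 37 C, as for RNT1. The probe sets of COX1, a cytochrome oxidase subunit gene with introns, disagreed. One was lower on both arrays, at 1654 in wild type, 112 on the array labelled rnt1d and 0.815 on the array labelled rnt1ts, while another was at 53.1, 203 and 0.972, on opposite sides of wild type. On the array labelled rnt1ts neither was above background, and they were at least 155-fold and 4.97-fold lower.

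Iron uptake genes were higher on the array labelled rnt1ts. Of 30 iron regulon genes, 16 were at least 2-fold higher on it and 1 on the array labelled rnt1d, with medians of 1.06 and 0.24, and 0 were lower on either. SIT1, a siderophore transporter gene, was at 28.2 in wild type, 22.4 on the array labelled rnt1d and 252 on the array labelled rnt1ts. ENB1, another siderophore transporter gene, was at 79.1, 85.3 and 270.3. FIT2, a cell wall protein gene of siderophore uptake, was at 29.0, 48.4 and 203. FET3, the oxidase gene of high-affinity iron uptake, was at 28.7, 34.9 and 763, and its wild type signals at 26 C, 149 and 318, were higher than at 37 C. At 26 C, 12 of the 30 genes were at least 2-fold higher in rnt1d and 0 in rnt1ts, against 3.32% and 1.41% of all probe sets. SIT1 was at 306 and 371 in rnt1d at 26 C and at 28.7 in rnt1ts.

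Among 16 measured mRNAs reported as RNase III substrates, 0 were higher on both arrays, 4 were higher on the array labelled rnt1ts and 0 on the array labelled rnt1d. These were MIG2, a repressor gene of glucose signalling, at 74.1, 63.9 and 195, the iron reductase gene FRE2, at 9.01, 17.7 and 48.2, and the iron regulon genes FIT2 and ARN2. MIG2 was at 172 and 183 in wild type at 26 C, above its wild type signal at 37 C. MIG3, a related gene on the hexose list, was at 25.2, 14.5 and 114. HXT2, a hexose transporter gene on the substrate list, was at 662, 161 and 1173, lower on the array labelled rnt1d.

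Many genes of methionine and arginine synthesis were lower on the array labelled rnt1ts. Of 25 sulfate assimilation and methionine genes, 14 were at least 2-fold lower on it and 2 on the array labelled rnt1d, with medians of -1.04 and -0.19. MET17, which incorporates sulfide into homocysteine, was at 2039 in wild type, 1456 on the array labelled rnt1d and 377 on the array labelled rnt1ts, and STR3, of cysteine and methionine interconversion, at 153, 168 and 27.1. Of 8 arginine synthesis genes, 6 were lower on the array labelled rnt1ts and 1 on both. ARG4, the argininosuccinate lyase gene, was at 1082, 776 and 164, and ARG1, the synthetase gene of the step before, at 971, 461 and 134. The wild type array at 37 C had a median of 0.76 over the arginine genes against wild type at 26 C, and against that mean the list medians were -1.10 on the array labelled rnt1ts and 0.23 on the array labelled rnt1d. ARG1, the gene lower on both, was at -0.27 and -1.94 against it. Of 13 leucine and branched-chain synthesis genes 3 were lower on the array labelled rnt1ts and 0 higher, with a median of -0.31. Of 24 other targets of the activator Gcn4, 4 were lower on it and 1 higher, with a median of -0.56. Among the latter HIS3, a histidine synthesis gene, was at 138, 118 and 33.6. HIS3 and MET17 are also on the list of genes used as strain markers.

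Heat shock genes were mixed on the array labelled rnt1ts, with 7 of 28 higher and 3 lower. HSP26, a small heat shock protein gene, was at 1163 in wild type, 835 on the array labelled rnt1d and 72.1 on the array labelled rnt1ts, and at 242 and 43.7 in wild type at 26 C. The wild type array at 37 C was thus high for HSP26, by 3.25 log2 units, and GPH1, the glycogen phosphorylase gene, was high there by 1.28, with signals of 254, 336 and 59.6 on the 3 arrays. Of 34 proteasome genes, 7 were higher on the array labelled rnt1ts and 0 on the array labelled rnt1d, with medians of 0.67 and 0.29. PUP3, a core particle subunit gene, was at 502, 641 and 1302, and RPN3, a regulatory particle subunit gene, at 85.7, 80.5 and 200.01. The wild type array at 37 C was lower than wild type at 26 C over this list, with a median of -0.56, and against that wild type mean at 26 C the list medians were 0.07 on the array labelled rnt1ts and -0.33 on the array labelled rnt1d. Of 15 genes of the retrograde response, which signals mitochondrial state to the nucleus, 5 were higher and 1 lower on the array labelled rnt1ts and 0 on the other, with IDH1, an isocitrate dehydrogenase subunit gene, at 174, 171 and 603. Transfer RNAs made up 13 of the 97 single-gene probe sets lower on the array labelled rnt1ts only (13.4%), against 1.41% of all single-gene probe sets.

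Of the 150 probe sets higher on the array labelled rnt1ts only, 64 (42.7%) were at least 2-fold higher in rnt1d at 26 C, against 3.32% of all, and 0 in rnt1ts at 26 C, against 1.41%. Of the 110 lower on it only, 36 (32.7%) were at least 2-fold lower in rnt1d at 26 C and 5 (4.55%) in rnt1ts, against 2.08% and 1.11%. For both directions the larger share at 26 C was thus in the strain with the other label, as it was for the changes on the array labelled rnt1d only. Whether the difference between those shares exceeds the spread between cultures was not tested.

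The 18 probe sets on opposite sides of wild type included several of ZRT1 and LEU2. LEU2, a leucine synthesis gene widely used as a selection marker, was at 497 in wild type, 3629.9 on the array labelled rnt1d and 203 on the array labelled rnt1ts. At 26 C it was at 592 and 645 in wild type, 211 and 168 in rnt1d and 3812 in rnt1ts. ZRT1, the high-affinity zinc transporter gene, was at 353, 1933 and 126 at 37 C, and 2 more of its 4 probe sets were on opposite sides, while the remaining one differed by -0.09 and -0.04. Of the 18 probe sets, 16 name 1 gene and cover 12 genes. At 26 C, 11 of the 18 were at least 2-fold lower in rnt1d and 13 at least 2-fold higher in rnt1ts, against 2.08% and 1.41% of all probe sets. The array with the higher signal carried the rnt1d label at 37 C. Which medium each array had was not given, so the part of leucine in the medium was not tested.

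**Figure D5:**
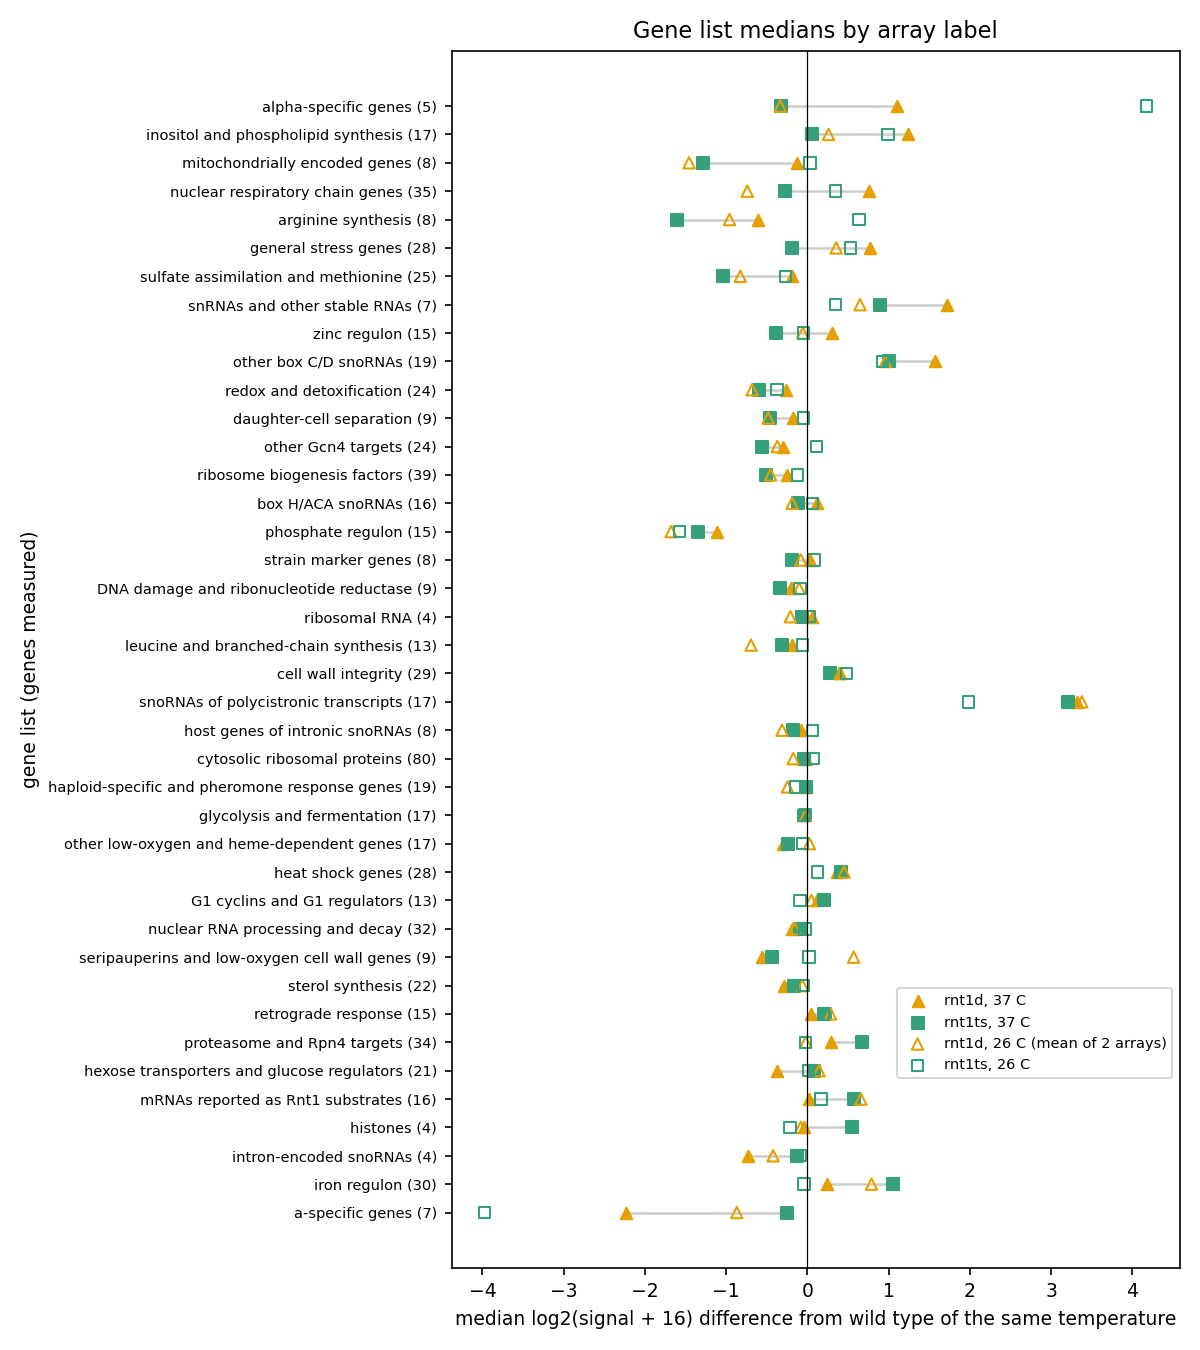
Median log2(signal + 16) difference from wild type of the same temperature for each gene list, on the array labelled rnt1d (triangles) and the array labelled rnt1ts (squares), filled at 37 C and open at 26 C, ordered by the difference between the 2 arrays at 37 C. The snoRNAs of polycistronic transcripts lie at 3.31 and 3.21 and the phosphate regulon at -1.11 and -1.34, while the a-specific genes lie at -2.23 and -0.26 and the mitochondrially encoded genes at -0.12 and -1.28.

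Several lists held no gene past 2-fold on either array or hardly any. Of 39 ribosome biogenesis factors and 22 sterol synthesis genes 0 passed 2-fold on either array. The former had medians of -0.25 and -0.51, and the wild type array at 37 C had a median of 0.31 over them against wild type at 26 C. Of 17 glycolysis and fermentation genes, 1 was lower on the array labelled rnt1ts and 0 were changed on the array labelled rnt1d. Of 32 nuclear RNA processing genes, RNT1 was the 1 lower on both. Of 19 haploid-specific and pheromone response genes, 1 was lower on the array labelled rnt1d. Histones (4 measured) had 0 past 2-fold on either array. Of 9 DNA damage genes 2 were lower on the array labelled rnt1ts, RNR2 and HUG1, of 9 daughter-cell separation genes 2 were lower on that array, among them SCW11, and of 13 G1 genes 2 were higher on it, among them the cyclin gene CLN1.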

How the data were processed

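Biotin-labelled total RNA was measured on Affymetrix yeast arrays, with 1 array for each sample. The deposited intensity signals are linear, with 1 value per probe set, and MAS5 is the tool that the submitters' processing notes name for them. The sources used here give neither its version nor its target intensity. The 8 arrays were not on a common scale and were quantile normalized together over all 9335 probe sets, of which 60 controls were then left out. Values were compared as log2(signal + 16), a scale that understates the change of dim transcripts. Of the 9275 probe sets, 6504 name 1 gene, 328 several and 2443 none in the platform annotation. The single-gene probe sets cover 5656 genes, all found by name in a table of assembly R64. Lists count each gene through 1 probe set, that with the highest 8-array mean.

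A signal at or under the highest of 19 non-yeast controls on an array was called not above background. Where a fold from such a signal is given, it is at least N-fold, computed on normalized signals without the added 16. No test was made, since each strain has 1 array at 37 C. The classification was tried on simulated data with changes well above 2-fold, placed only in probe sets above the median signal. That trial does not cover dimmer probe sets or changes near 2-fold. Computing used Python 3.11.15, numpy 2.4.6 and pandas 2.3.3.

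The members and gene lists were chosen with earlier results of these data known. A rule selected RNT1, the 15 single-gene probe sets per direction with the largest shared difference, the 8 per array and direction with the largest difference between the mutant arrays, the 5 leading opposite ones and up to 4 members per list. Not all genes it selected are described above. Those left out include KCC4, PTR2, KAP123, SLY41, HNT2, FMP10, PET117, AIM11, IRC18, OPT2, SMP1 and FMP16, each changed on 1 array only. Every gene described outside this rule was chosen after its values were seen. Alternatives were the scaling, the pseudocount, a filter on low signals, a 4-fold threshold and other wild type references, the last of them, the 2 wild type arrays at 26 C, chosen after seeing the data.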

Additional observations from a re-analysis of the deposited data

Results flagged for a closer look

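Among all probe sets of the genes named by the rule, 16 differences from wild type were at least 2-fold in one direction on every array of a strain label at 26 C and at least 2-fold in the other at 37 C. These differences between temperatures were not tested, since rnt1ts has 1 array at each temperature and rnt1d 1 at 37 C. LEU2 gave log2 differences from wild type that were 4.46 higher at 37 C than at 26 C under the rnt1d label. Under the rnt1ts label LEU2 moved by -3.82, and a second LEU2 probe set by -5.02. Under the rnt1d label that second probe set is not among the 16, since 1 of the 2 arrays at 26 C was under 2-fold for it. Of the COX1 probe sets, 2 moved by 2.63 and 3.98 under the rnt1d label and by -3.31 and -4.37 under the rnt1ts label. ZRT1, the zinc transporter gene, moved by 5.13, 4.90 and 3.70 under the rnt1d label on 3 probe sets, and by -3.38, -2.51 and -2.54 under the rnt1ts label on the same probe sets. ARG1, of arginine synthesis, moved by -3.86 under the rnt1ts label, from 1.15 at 26 C to -2.72 at 37 C. YAR068W moved by 3.75 under the rnt1ts label, from -1.48 to 2.27. A probe set of SNF7 moved by -3.69 under the rnt1ts label, from 1.07 to -2.62, while the other 2 SNF7 probe sets had differences of -0.25 and 0.43 at 37 C. The one at 0.43 was not above background in wild type or on the array labelled rnt1ts.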

How the results depend on the processing

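No paired analysis was possible because each strain has 1 array at 37 C and the results come from no test. The counts in the report depend most on the added constant and the threshold. With 1 in place of 16 added, the array labelled rnt1d had 692 probe sets higher and 699 lower, the array labelled rnt1ts 889 and 878, and both 315 and 268. The array labelled rnt1d only then had 181 and 175, the array labelled rnt1ts only 317 and 346, and 40 were opposite. With 64 added, the array labelled rnt1d had 143 higher, the array labelled rnt1ts 165 higher and 142 lower, and 46 were lower on both. The 1-array counts then were 46 higher for rnt1d and 66 higher and 43 lower for rnt1ts, with 8 opposite. At 4-fold, the array labelled rnt1d had 64 higher and 30 lower, the array labelled rnt1ts 59 and 46, both 39 and 11, rnt1d only 8 and 2, rnt1ts only 5 and 8, and 0 were opposite.

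On the deposited scale 471 were lower on the array labelled rnt1ts, 166 on both and 23 on the array labelled rnt1d only. All 70 probe sets higher on both on that scale are among the 85. With probe sets above the median mean signal only, 73 were lower on the array labelled rnt1ts only. With the mean of 3 wild type arrays as reference, 116 were higher on the array labelled rnt1d only. With the 2 wild type arrays at 26 C as reference, 382 were higher on the array labelled rnt1d, 134 on it only, 63 were lower on the array labelled rnt1ts only and 10 were opposite. The remaining counts under these and the other alternatives were within 1.5 times those reported. A similar count does not mean the same members. With the 2 wild type arrays at 26 C as reference, 34 of the 73 probe sets higher on the array labelled rnt1d only kept that class. So did 15 of the 50 lower on it only. For the array labelled rnt1ts only, 61 of the 150 higher and 29 of the 110 lower kept theirs.

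Among the genes named by the rule, 860 values under an alternative stayed within the replicate SD of those reported. A further 330 moved by more without a change of sign. Of these, 92 moved with 64 added and 65 with 1 added. With the 2 wild type arrays at 26 C as reference 82 moved, and with 3 wild type arrays 68. Another 6 values changed sign, all with another wild type reference. With 3 wild type arrays PRM7 was at 0.23 and 0.24 on its 2 probe sets on the array labelled rnt1d. With the 2 arrays at 26 C, PRM7 was at 1.24 and 1.14 there, BSC1 at 0.014 there and TIR1 at 0.046 on the array labelled rnt1ts. The reference of 2 arrays leaves out the wild type array at 37 C, on which these genes were high. The reference of 3 arrays keeps it and averages it with the 2 at 26 C.

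Of the list medians, 633 values under an alternative stayed within the replicate SD of those reported and 87 moved by more. With the 2 wild type arrays at 26 C as reference, the medians were -1.85 and -2.12 for the phosphate regulon and -3.35 and -0.86 for the a-specific genes, on the arrays labelled rnt1d and rnt1ts.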
